A study of Mus musculus with 62 samples.

Results

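Proteasome genes were taken as all counted genes whose mouse symbol begins with Psma to Psmg followed by a number. There were 45 of them among the 11121 genes counted. They comprised 14 subunits of the core particle, 1 subunit of the immunoproteasome, 9 subunits of the base and 8 of the lid of the regulatory particle, 5 alternative activators or inhibitors and 7 assembly chaperones. The remaining gene, Psme2b, shares 3′ sequence with Psme2 and was given no role. Psma8, Psmb8, Psmb9 and Psmb11, which encode testis, immune and thymus forms of core subunits, were not among the genes counted. All 62 libraries were BRB-seq libraries, made with barcoded oligo-dT primers and read near the 3′ end, of total RNA from wild-type C57BL/6j mice at 15 weeks of age. The mice had either undergone multimodal chronic restraint stress (mCRS), weeks of daily restraint that varied in form, or had been left unstressed (CTR). RNA came from the prefrontal cortex (PFC; 15 CTR and 15 mCRS libraries) and from the nucleus accumbens (NAc; 16 CTR and 16 mCRS libraries). The paper took RNA of both regions from the same mice. Which PFC and NAc libraries came from the same mouse is not given in the sources used here, and tissue was taken some days after the last session.

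The proteasome degrades proteins that carry ubiquitin chains. Its core particle is a barrel of stacked alpha and beta rings, in which the beta subunits Psmb5, Psmb6 and Psmb7 carry the peptide-cutting sites and the alpha subunits form the gate. The regulatory particle caps the barrel: the ATPases of its base unfold the substrate and thread it inwards, and the lid removes the ubiquitin chain through Psmd14. Neurons rely on this system at synapses, where protein turnover adjusts signaling, and cells tend to make its subunits in concert.

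Library totals ranged from 945286 to 4857359 counts. Counts include PCR copies as they came, so they are not numbers of molecules. Errors given with fold changes include the spread between libraries. The summed striatal markers were higher in the NAc and the summed cortical excitatory markers higher in the PFC, as the tissue labels state, with 1 library apart. In NAc CTR replicate 7 the 8 striatal markers summed to 473.9 CPM, counts scaled to a library total of 1000000, against at least 2594 in every other NAc library, and the 2 counted hypothalamic markers to 2369 CPM, against at most 784.4. The hypothalamic markers were not confined to that library. Their summed NAc medians were 192 CPM for CTR mice and 316 CPM for mCRS mice, against 0.588 and 1.07 CPM in the PFC. The lowest NAc value was 0 CPM for each treatment. NAc mCRS replicate 10 held 23863 CPM of choroid plexus markers, against at most 451.8 in the other NAc libraries. Its summed proteasome counts, 4518 CPM after scaling, and those of NAc CTR replicate 7, 4863 CPM, lay within the ranges of their groups.

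Promoters of core and base genes that were lower in the NAc are shown to give their sequence context, since subunit genes are often controlled together. Of the 45 genes, 38 matched a RefSeq promoter of build GRCm38.p6, a window of 300 bases from 250 before to 50 after the start. Psmc3, Psmb7 and 5 others had no entry. Printed are the bases ahead of the annotated gene start, with matches in capitals to the antioxidant element (TGACNNNGC), bound by Nfe2l1 and Nfe2l2, the NF-Y box (CCAAT) and the ETS box (CCGGAAG), on either strand. Psma1 is shown at chr7:114276119-114276366 (minus strand), Psma2 at chr13:14612992-14613239, Psma4 at chr9:54950609-54950789 and Psmc6 at chr14:45329574-45329787 (plus strand).
Psma1: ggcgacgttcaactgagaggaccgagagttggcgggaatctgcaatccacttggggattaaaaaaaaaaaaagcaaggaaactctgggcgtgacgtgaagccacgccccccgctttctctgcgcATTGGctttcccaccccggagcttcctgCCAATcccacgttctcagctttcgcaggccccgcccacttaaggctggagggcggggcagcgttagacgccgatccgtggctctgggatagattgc
Psma2: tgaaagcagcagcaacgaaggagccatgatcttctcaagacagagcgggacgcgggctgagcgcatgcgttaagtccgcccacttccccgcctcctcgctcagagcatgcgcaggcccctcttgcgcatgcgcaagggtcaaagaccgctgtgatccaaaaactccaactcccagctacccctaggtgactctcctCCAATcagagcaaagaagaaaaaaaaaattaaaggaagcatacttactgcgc
Psma4: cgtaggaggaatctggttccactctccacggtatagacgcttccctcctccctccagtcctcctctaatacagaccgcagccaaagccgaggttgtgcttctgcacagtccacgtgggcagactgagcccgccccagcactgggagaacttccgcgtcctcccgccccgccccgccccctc
Psmc6: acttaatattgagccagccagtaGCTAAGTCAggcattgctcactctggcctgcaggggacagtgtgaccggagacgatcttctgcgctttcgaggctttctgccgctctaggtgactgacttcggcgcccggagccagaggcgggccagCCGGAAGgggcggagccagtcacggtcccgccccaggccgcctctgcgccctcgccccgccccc

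Psma1 held 2 NF-Y boxes and Psma2 held 1, Psmc6 held an antioxidant element and an ETS box, and Psma4 held no match. The ETS box was found in 13 of the 38 windows (34.2%), against 8.86% of all 32851 RefSeq promoters and 16.8% of the 11472 promoters of counted genes. These matches lay in 5 of 8 base and 4 of 6 lid windows and in 0 of 11 core windows. The NF-Y box was in 12 of the 38 (31.6%; 37.4% of all promoters), among them 6 of the 11 core windows. The antioxidant element was in 6 of 38 (15.8%; 12.4% of all), including the catalytic genes Psmb5 and Psmb6. No printed match overlapped another. For 7 of the 38 genes the nearest RefSeq start lay over 200 bases from the GENCODE gene start.

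As a share of all counts, proteasome genes were measured at similar summed levels in all 4 groups. The summed level ranged from 4074 to 5978 CPM in PFC CTR libraries (median 5061), from 4033 to 5977 in PFC mCRS (5270), from 3917 to 5690 in NAc CTR (4702) and from 4264 to 5609 in NAc mCRS (4699). The 4 ranges overlapped. The core subunits had medians of 2367 and 2461 CPM in PFC CTR and mCRS libraries and of 1974 and 2090 in the NAc. The base medians were 1225 and 1301 in the PFC against 1205 and 1137 in the NAc, and the lid medians 928.1 and 911.6 against 965.8 and 963.1. The core was thus the part whose medians lay lower in the NAc by the widest margin, and the lid medians lay slightly higher there. Precision differed among the genes: counts over all libraries ran from 2580 for the chaperone Psmg3 to 46257 for Psmb1, leaving out Psme2b with 538. The standard deviation of log2 CPM within a group had a median over the proteasome genes of 0.80 to 0.96, against 1.65 to 1.97 over all genes counted. These medians were not matched for count level. Proteasome genes with few counts spread more, up to 2.73 for Psmd9 in PFC CTR libraries.

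The first question was whether the regions differ, and it was asked separately in CTR and in mCRS mice with edgeR's quasi-likelihood test and Benjamini-Hochberg adjustment over all genes tested (FDR). In CTR mice, Psma4, Psmc3 and Psmc6 were lower in the NAc than in the PFC. In mCRS mice, Psma1, Psmc6 and Psmb7 were lower in the NAc. In each comparison 44 proteasome genes passed the filter on low counts, 3 had an FDR below 0.05, all lower in the NAc, and 0 were higher. The 3 of 44 stand beside 6.32% of 9932 genes called in CTR mice (4.23% lower) and 6.31% of 9452 in mCRS mice (4.23% lower), so the number of calls was close to that among all genes. The log2 fold change was below 0 for 31 of the 44 in CTR mice and 28 of the 44 in mCRS mice, against 48.9% and 48.1% of all genes. The median log2 fold change over the 44 was -0.11 in CTR and -0.17 in mCRS mice, against 0.02 and 0.03 over all genes tested.

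Psma4, an alpha subunit of the core gate, had the largest difference of these genes in CTR mice. It ranged from 28.2 to 364 CPM in PFC CTR libraries (median 132) and from 16.5 to 96.5 CPM in NAc CTR libraries (median 50.0). All 16 NAc CTR libraries lay below the PFC CTR median, though the ranges overlapped. The log2 fold change, NAc over PFC, was -1.44 ± 0.32 (SE; FDR = 0.0012, edgeR), or 2.71-fold lower in the NAc. In mCRS mice, with medians of 118 CPM in the PFC and 86.6 in the NAc, it was -0.65 ± 0.33 (FDR = 0.357). Psma4 shared 14.6% of the 70-base stretches near its 3′ end with a copy, Gm6542, so part of its reads could not be placed uniquely.

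Psmc6, an ATPase of the base, was the gene that passed the test in both treatments. In CTR mice it ranged from 84.5 to 424 CPM in the PFC (median 225) and from 38.1 to 367 in the NAc (median 142). In mCRS mice it ranged from 32.6 to 569 CPM in the PFC (median 235) and from 2.09 to 199 in the NAc (median 111). The groups overlapped in both, with 15 of 16 NAc CTR and 16 of 16 NAc mCRS libraries below the PFC median of the same treatment. The log2 fold changes were -0.70 ± 0.23 (FDR = 0.049) and -1.23 ± 0.32 (FDR = 0.0071, edgeR). The CTR call was close to the threshold: Psmc6 had an FDR below 0.05 in 9 of the 31 fits that left out 1 library. In CTR mice it passed in 4 of 12 other settings, with FDR values up to 0.69. In mCRS mice it passed in 9 of 11, with FDR values up to 0.259.

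Psmc3, another base ATPase, had a median of 212 CPM in PFC CTR libraries (45.4 to 296) and of 119 CPM in NAc CTR libraries (62.1 to 203). All 16 NAc CTR libraries lay below the PFC CTR median, and the ranges overlapped. The log2 fold change was -0.73 ± 0.22 in CTR mice (FDR = 0.025, edgeR) and -0.50 ± 0.25 in mCRS mice (FDR = 0.339). The 3′ end of Psmc3 overlaps Slc39a13, and reads of the 2 genes may be mixed if strand was not used in counting.

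Psma1, a further alpha subunit, had a median of 333 CPM in PFC mCRS libraries (111 to 542) and of 146 CPM in NAc mCRS libraries (59.0 to 325). All 16 NAc mCRS libraries lay below the PFC mCRS median, and the ranges overlapped. It was 2.06-fold lower in the NAc (log2 fold change -1.04 ± 0.22, FDR = 0.00083, edgeR), and in CTR mice the log2 fold change was -0.56 ± 0.25 (FDR = 0.222).

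Of the catalytic beta subunits, Psmb7 passed the test, in mCRS mice. It carries the trypsin-like site and was lower in the NAc of mCRS mice, with a median of 131 CPM (48.7 to 195) against 187 CPM in the PFC (84.9 to 402), and 15 of 16 NAc libraries lay below the PFC median. Its log2 fold change was -0.75 ± 0.23 in mCRS mice (FDR = 0.035, edgeR) and -0.02 ± 0.25 in CTR mice (FDR = 0.991). Without NAc mCRS replicate 10 the FDR in mCRS mice was 0.0547, and 2 genes were called. Its FDR was below 0.05 in 6 of 11 other settings. Psmb7 overlaps Nek6 near its 3′ end, so the same limit on strand holds. Psmb5, the chymotrypsin-like subunit, had log2 fold changes of 0.01 ± 0.51 and -0.38 ± 0.48, and Psmb6, the caspase-like subunit, of 0.09 ± 0.25 and 0.01 ± 0.25. Neither passed the test. Psmb10, which replaces Psmb7 in immunoproteasomes, had a median of 68.7 CPM in PFC CTR against 38.1 in NAc CTR libraries, and of 74.7 in PFC mCRS against 35.6 in NAc mCRS libraries. Its log2 fold change was -0.88 in both treatments (SE 0.38 and 0.41; FDR = 0.204 and 0.286, edgeR).

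**Figure D1:**
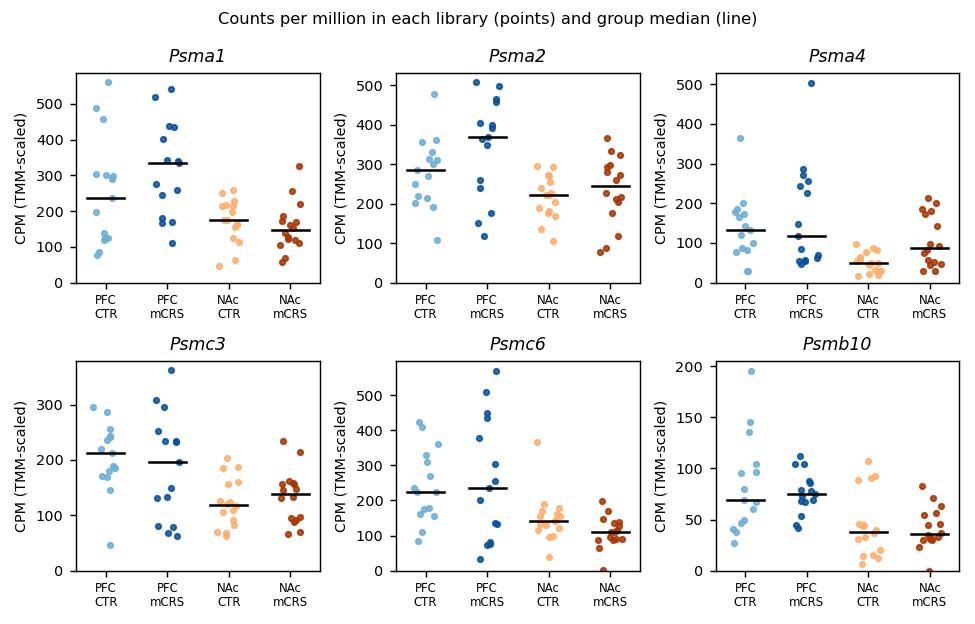
CPM (TMM-scaled, linear axis from 0) of 6 genes in each of the 62 libraries, by region and treatment, with the group median as a line. Shown are Psma1, Psma2, Psma4, Psmc3, Psmc6 and Psmb10, the 6 genes called lower in the NAc in the average over both treatments given below. Their NAc medians lie below the PFC medians of the same treatment, which follows from that selection, and the points of the groups overlap.

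By part, the alpha ring was lower in the NAc most often. All 7 alpha genes had a log2 fold change below 0 in CTR mice (median -0.56) and 6 of 7 in mCRS mice (median -0.43). In CTR mice 5 of the 7 were lower at an unadjusted p below 0.05, of which Psma4 passed the adjustment, and in mCRS mice 2 of the 7, of which Psma1 passed. Of all genes tested, 8.79% and 8.78% were lower at that p in CTR and mCRS mice. The 3′ ends of Psma3 and Psma5 shared 37.2% and 47.8% of their stretches with copies, and those of Psmb3 and Psmb5 in the beta ring 47.3% and 39.3%. In the beta ring 5 of 7 lay below 0 in each treatment, with medians of -0.02 and -0.38. The base, with 6 and 7 of 9 below 0, had medians of -0.03 and -0.15. In the lid these were 7 and 5 of 8, with medians of -0.11 and -0.08, and 0 genes passed the test in either treatment. Psmd14, the deubiquitinase of the lid, did not pass the test in mCRS mice (-0.85 ± 0.28, FDR = 0.0504), with -0.05 ± 0.23 in CTR mice. The assembly chaperones had medians of 0.29 and 0.09 with wide errors (median SE 0.73 and 0.77), and the activators and inhibitor of 0.06 and 0.04.

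**Figure D2:**
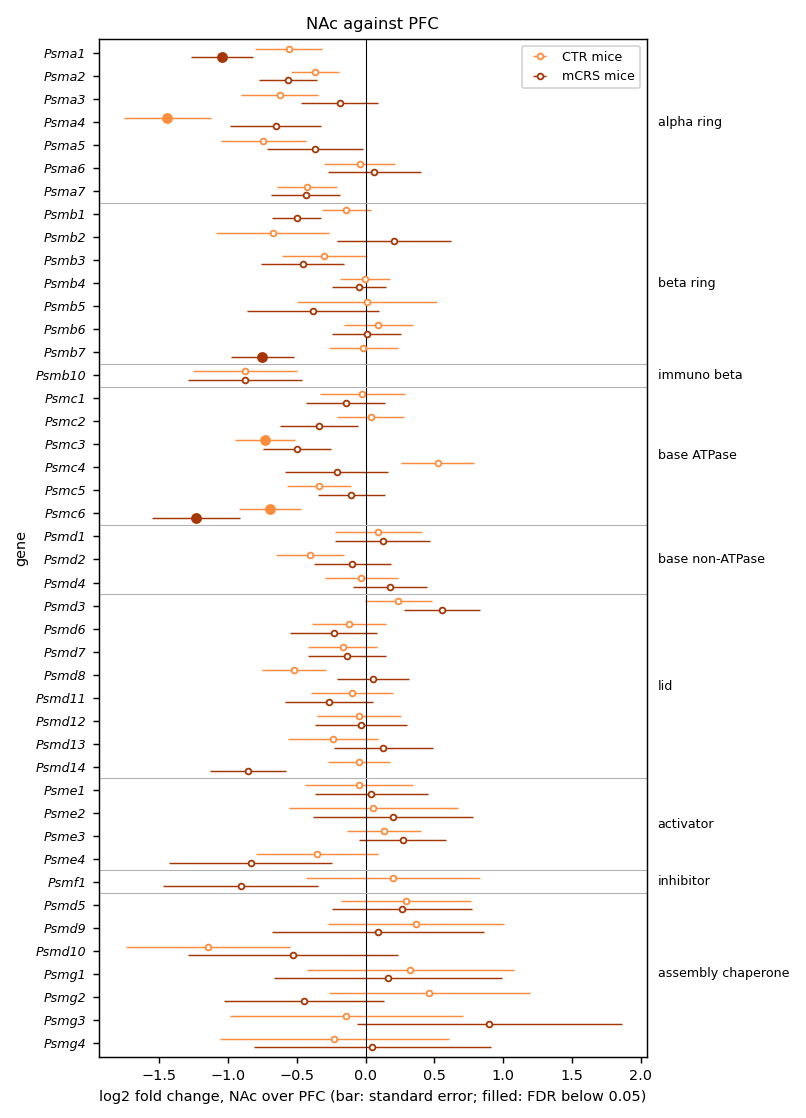
Log2 fold change, NAc over PFC, of 44 proteasome genes in CTR (orange) and mCRS mice (brown), with the standard error as a bar and genes grouped by role. Filled points mark the 3 genes in each treatment with an FDR below 0.05, all left of 0, and points of the alpha ring lie mostly left of 0.

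The CTR and mCRS region comparisons share no library. The same direction was seen in both for 31 of 44 proteasome genes (70.5%), against 67.6% of the 9235 genes tested in both. Of the 44, 23 (52.3%) were below 0 in both, against 32.6% of all genes, and 8 (18.2%) above 0 in both, against 35.1%. Among the 7 alpha genes all but Psma6 were below 0 in both. The lid subunit Psmd3 was the only lid gene above 0 in both, at 0.24 ± 0.24 and 0.56 ± 0.28 (FDR = 0.787 and 0.332).

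The region difference was also averaged over both treatments in 1 fit of all 62 libraries, an alternative chosen after the data had been seen. It called 6 of 45 proteasome genes, all lower in the NAc, against 11.3% of 11025 genes called in either direction and 6.68% called lower. These were Psmc6 (-0.96 ± 0.20, FDR = 0.00018), Psma1 (-0.79 ± 0.17, FDR = 0.00025), Psma4 (-1.05 ± 0.23, FDR = 0.00044), Psmc3 (-0.61 ± 0.16, FDR = 0.0048), Psma2 (-0.46 ± 0.14, FDR = 0.015) and Psmb10 (-0.87 ± 0.27, FDR = 0.018; edgeR). Psma2 is an alpha subunit, with medians of 285 and 370 CPM in PFC CTR and mCRS libraries and of 222 and 245 CPM in the NAc. Without the 2 NAc libraries that stood apart, 6 genes were again called, with FDR values between 0.00031 and 0.016. NAc levels were 1.37-fold lower for Psma2 and 2.07-fold lower for Psma4, and the other 4 genes lay between.

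Neuronal and oligodendrocyte markers differed between the regions, and those of astrocytes, microglia and endothelium did so less. Both counted hypothalamic markers were called higher in the NAc in each treatment. Of the 3 counted choroid plexus markers, 1 was called lower in the NAc in CTR mice and 2 higher in mCRS mice. Of 6 astrocyte markers 1 was called higher in the NAc in each treatment, and 0 microglia and 0 endothelial markers were called. The 6 pan-neuronal markers, all counted, summed to 5783 to 7888 CPM in PFC CTR and 5569 to 6954 in PFC mCRS libraries, and to 3166 to 5320 and 2824 to 4645 in the NAc, with 3 of 6 called lower there in each treatment. The 6 oligodendrocyte markers summed to 1712 to 5971 and 2470 to 6854 CPM in the PFC and to 5214 to 7911 and 4992 to 8241 in the NAc, with 5 of 6 called higher in each treatment. The part of cell composition in the proteasome differences was not tested. In bulk tissue, fewer cells of a type and less RNA per cell cannot be told apart.

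The second question was whether mCRS changed proteasome genes. In the PFC, 0 of 44 had an FDR below 0.05 (edgeR), against 0 of 8916 genes (0%), and 1 of 44 had an unadjusted p below 0.05 (Psmb7), against 3.5% of all genes. DESeq2's Wald test also called 0 proteasome genes in the PFC, and its share over all genes is not given. In the NAc, 0 of 44 had an FDR below 0.05, against 1 of 10141 genes (0.00986%), and 3 of 44 had an unadjusted p below 0.05 (Psma4, Psmc4 and Psmd14), against 2.04% of all genes. DESeq2 called 0 proteasome genes in the NAc, with the same limit.

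In the PFC the smallest p belonged to Psmb7, with a median of 126 CPM in CTR (26.1 to 234) and of 187 CPM in mCRS libraries (84.9 to 402). Of the 15 mCRS libraries 12 lay above the CTR median, and the ranges overlapped. The log2 fold change, mCRS over CTR, was 0.64 ± 0.25 (p = 0.013, FDR = 0.9997, edgeR), which failed the adjustment, and other settings gave 0.21 to 1.08. Psmg2, a chaperone of core assembly, had medians of 7.13 and 37.3 CPM and a log2 fold change of 1.43 ± 0.74 (p = 0.058, FDR = 0.9997), with 3 of 15 CTR libraries at 0, and other settings gave 0.25 to 3.02. Psmf1, which encodes a proteasome regulator first known as an inhibitor, had medians of 29.8 and 64.0 CPM and 0.88 ± 0.52 (p = 0.098). Psmb5, Psmb6 and Psmb10 had log2 fold changes of 0.38 ± 0.48, 0.22 ± 0.25 and -0.11 ± 0.33 in the PFC.

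In the NAc the smallest p belonged to Psma4, at a median of 50.0 CPM in CTR (16.5 to 96.5) and of 86.6 CPM in mCRS libraries (28.2 to 214). Of the 16 mCRS libraries 12 lay above the CTR median, and the ranges overlapped. The log2 fold change was 1.06 ± 0.33 (p = 0.0019), with an FDR that rounds to 1 (edgeR). This comparison and that of the regions in CTR mice share the NAc CTR libraries, in which Psma4 was low. Psmc4, a base ATPase, had medians of 111 and 76.9 CPM in CTR and mCRS libraries and a log2 fold change of -0.64 ± 0.26 (p = 0.018), with 2 of 16 mCRS libraries above the CTR median. Psmd14 had medians of 157 and 97.5 CPM and -0.64 ± 0.26 (p = 0.018), with 4 of 16 above, and other settings gave -1.14 to -0.19. Neither passed the adjustment. Psmb5, Psmb6, Psmb7 and Psmb10 lay between -0.12 and 0.13 in the NAc, each with an SE larger than its value.

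**Figure D3:**
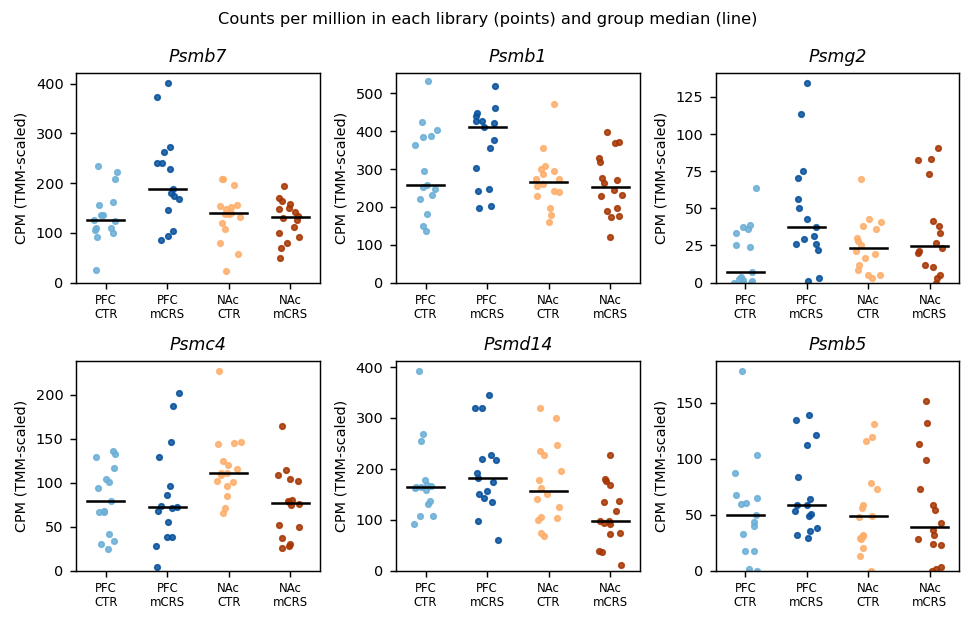
CPM (TMM-scaled, linear axis from 0) of 6 genes in each of the 62 libraries, with the group median as a line. Psmb7 has medians of 126 and 187 CPM in PFC CTR and mCRS libraries and Psmd14 of 157 and 97.5 CPM in NAc CTR and mCRS libraries, and the points overlap in each pair.

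The errors set what could be seen. In the PFC the 95% interval of the mCRS effect lay within a 2-fold change in either direction for 31 of 44 genes and within 1.5-fold for 4. In the NAc these numbers were 30 and 12. All 9 base and 8 lid genes had intervals within 2-fold in the PFC, and 11 of 14 core genes. For the 7 chaperones 0 intervals were that narrow in either region, with a median SE of 0.83 in the PFC and 0.71 in the NAc. The median log2 fold change over the 44 genes was 0.06 in the PFC and 0.11 in the NAc.

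**Figure D4:**
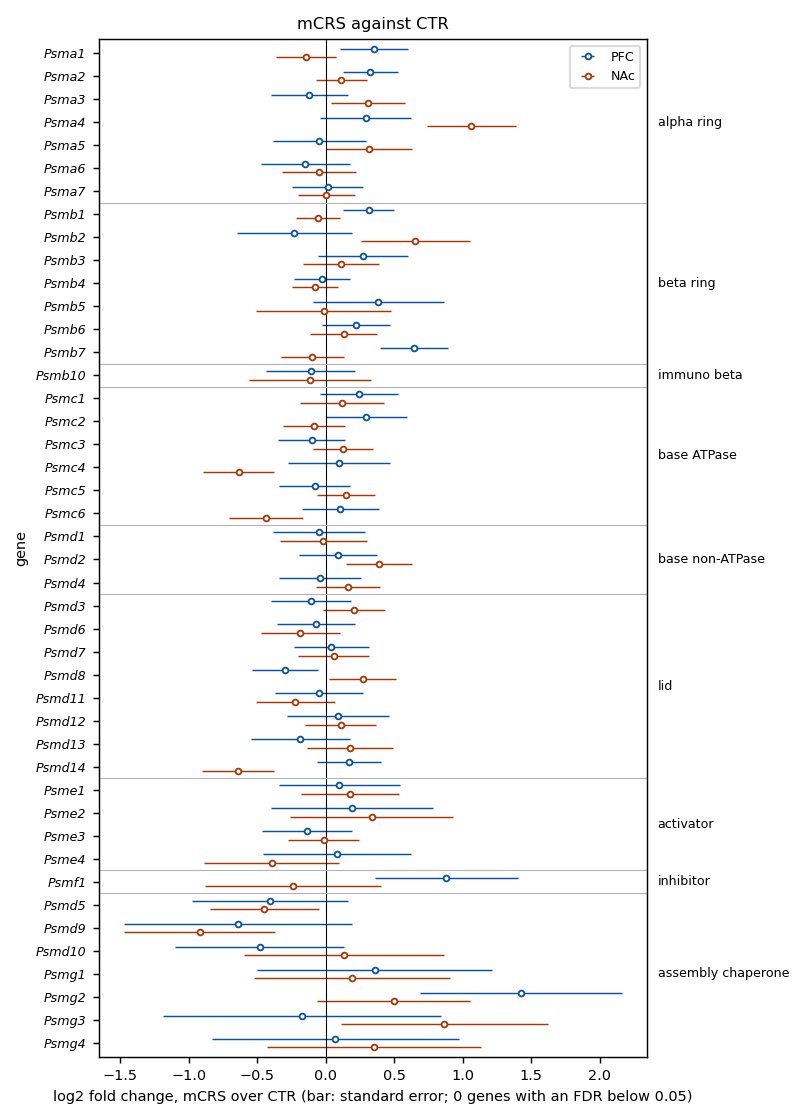
Log2 fold change, mCRS over CTR, of 44 proteasome genes in the PFC (blue) and NAc (brown), with the standard error as a bar and genes grouped by role. No point is filled, since 0 genes had an FDR below 0.05, and the bars of the assembly chaperones are the widest.

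The difference between regions in the mCRS effect, which equals the difference between treatments in the region effect, was tested as an interaction over all 62 libraries. It called 0 of 45 proteasome genes (edgeR), against 1 of 11025 genes (0.00907%). DESeq2 called 0 proteasome genes, and its share over all genes is not given. At an unadjusted p below 0.05 there were 2 of 45 with edgeR, against 3.09% of all genes. These were Psmd14, with an mCRS effect higher in the PFC by 0.80 ± 0.36 on the log2 scale (p = 0.028), and Psmb7, higher in the PFC by 0.73 ± 0.34 (p = 0.032). Other settings gave 0.39 to 1.25 for Psmd14 and 0.09 to 1.38 for Psmb7. The interaction of Psma4 was -0.78 ± 0.46 (p = 0.095), and FDR values of all 3 round to 1. For Psmb5, Psmb6 and Psmb10 it was 0.39 ± 0.71, 0.09 ± 0.36 and 0.00 ± 0.52. The region calls that differed between treatments, such as Psma4 in CTR and Psma1 in mCRS mice, were thus not shown to depend on treatment. The interval of the interaction lay within 2-fold for 16 of the 45 genes.

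The measured levels of proteasome genes correlated little within groups. Over the 62 libraries, after each group's mean was taken off the log2 CPM values, the median Pearson correlation over the 990 pairs was 0.03, and it was 0.02 between proteasome genes and all other genes. It was 0.10 within the core, 0.03 within the base and -0.01 within the lid. The highest pairs were Psmb6 with Psmc1 (0.52), Psmc6 with Psmd14 (0.51) and Psmb10 with Psmc6 (0.51). Genes of 1 library share its depth and composition, and these values describe these libraries only. Noise in the counts lowers such correlations, so low values do not show that the genes vary apart.

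Other genes of the pathway were read from a list of 34 ubiquitin, shuttle, proteasome-bound and regulatory genes, 31 of which were counted. In CTR mice 1 of 31 was lower in the NAc, Zfand5, which binds and activates the proteasome (-0.84 ± 0.25, FDR = 0.024, edgeR), and 0 were higher. Of all genes, 4.23% were called lower in each treatment. In mCRS mice 2 were lower, the ubiquitin-ribosomal fusion gene Rps27a (-0.99 ± 0.18, FDR = 7.5e-05) and Sem1, a small subunit of the lid (-0.85 ± 0.25, FDR = 0.027). Zfand5 had an FDR below 0.05 in 7 of 12 other settings and in 29 of 31 fits without 1 library, and Sem1 in 5 of 11 settings, with FDR values up to 0.454 and 0.747. The list's median log2 fold change was -0.07 in CTR and -0.04 in mCRS mice, against 0.02 and 0.03 over all genes. The transcription factor genes Nfe2l1 and Nfe2l2, which drive subunit genes, did not pass the test between regions, at 0.01 ± 0.18 and 1.22 ± 0.80 in CTR mice. For mCRS against CTR, 0 of 31 passed in either region, and 0 in the interaction.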

How the data were processed

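The authors mapped BRB-seq reads with STAR to mm10, counted uniquely mapped reads per gene with HTSeq and deposited raw counts without normalization. PFC samples of low sequencing quality had been removed by then. No molecular identifiers were used. Counts were tested with edgeR 4.0.16 (R 4.3.3; TMM, default filter by group, quasi-likelihood test) in the libraries of each comparison, and the interaction in all 62. FDR is Benjamini-Hochberg over all genes tested. CPM values shown were TMM-scaled over all libraries, and log2 CPM used a prior count of 2. The summed levels of all proteasome genes and of the core, base and lid by group were instead plain shares of library totals, without TMM. Alternatives were DESeq2 1.42.0, RLE normalization, library sizes without mtDNA genes, other filters, covariates, all 62 libraries in 1 fit, a replicate block, parts of the numbering and libraries left out. Copies of 3′ ends were sought as perfect matches of 70 bases in the last 600 bases of GENCODE M21 transcripts. The tests were tried on simulated data. Libraries were taken as separate animals within a group, and the tests set differences against the spread between these libraries. The region comparisons, their average and the interaction treated PFC and NAc libraries as independent, although the mice gave both regions. Named genes were all called members, the 3 of smallest p where fewer passed, the catalytic subunits and Psmb10. Psma2, Psmd3 and, between regions, Psmd14 were named after their values had been seen. The members, gene lists and rules were chosen with earlier results of these data known. 1 gene of the pathway list is not reported here.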

Additional observations from a re-analysis of the deposited data

How the results depend on the processing

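The counts of proteasome genes called held within 1.5 times under most alternatives, where 0 against 0 was taken as held. For mCRS in either region and for the interaction, 0 proteasome genes were called under each alternative tried. In CTR mice the 3 region calls became 0 with replicate numbers 1 to 8 only and 0 with numbers 9 and above only, and 6 in the average over both treatments. In mCRS mice the 3 became 1 with numbers 1 to 8 only and 0 with numbers 9 and above only. These parts hold fewer libraries. The log2 fold changes of the 5 genes called kept their sign in both, in the comparison that called them. Among all alternatives, with fits that left out a library, the share of all genes called is given only for the average over both treatments. A change in calls may thus not be particular to proteasome genes. With 1 library left out, the CTR region count was 2 to 3, and the mCRS counts were 0 to 0 in the PFC and 0 to 0 in the NAc. In mCRS mice only NAc replicate 10 was left out, which gave 2, and no library was left out of the interaction.

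Same-numbered libraries did not deviate together: 0 of the 15 or 16 pairs in any comparison had a correlation above 0.1. This cannot exclude a shared mouse, since no known pair showed what correlation to look for. Only the region comparisons could hold libraries of the same mouse. Numbers were not taken as pairs, since the labels do not tie them to mice. With the number as a replicate block, 2 genes were called in CTR and 3 in mCRS mice between regions, and 0 for mCRS in the PFC, the NAc and the interaction. Under the block Psmb10 changed sign for mCRS in the PFC (0.07), in the NAc (0.02) and in the interaction (-0.15), without passing the test.

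Other reversals were of values near 0 that did not pass the test. Between regions in CTR mice, Psmb7 turned to 0.03 with DESeq2, 0.03 with RLE, 0.04 with library size and 0.08 with the share of genes detected as covariates, and 0.51 with numbers 1 to 8. Psmb6 turned to -0.03 with the share detected, and Psmb5 to -0.01 with the stricter filter, -0.04 with numbers 1 to 8 and -0.18 in the average. In mCRS mice, Psmb6 turned to -0.31 with numbers 1 to 8 and -0.05 without NAc mCRS replicate 10. For mCRS in the PFC, Psmb6 turned to -0.05 with numbers 9 and above and Psmb10 to 0.29 with numbers 1 to 8. In the NAc, Psmb5 turned to 0.37 and Psmb7 to 0.13 with numbers 9 and above, Psmb6 to -0.03 and Psmb10 to 0.31 with numbers 1 to 8, and Psmb10 to 0.08 with library size and 0.04 with the share detected. In the interaction, Psmb6 turned to -0.30 with numbers 9 and above. Psmb10 turned to -0.01 without a filter, -0.0031 with the stricter filter, -0.05 with library size, -0.02 with numbers 1 to 8 and -0.09 with numbers 9 and above. With 1 library left out, Psmb5 ranged from -0.13 to 0.26 and Psmb7 from -0.10 to 0.06 between regions in CTR mice, Psmb10 from -0.18 to 0.03 for mCRS in the PFC, and Psmb5 from -0.20 to 0.12 and Psmb10 from -0.21 to 0.03 in the NAc. The cause was not tested. The widest ranges over settings of values named without a call were those of Psmg2 in the PFC and of Psmb7 in the interaction, from 0.25 to 3.02 and from 0.09 to 1.38. What depth limits is given as intervals beside the mCRS results.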
